A study of Homo sapiens with 60 samples.

Results

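The response of A549 cells to the highest dose of a hot-water extract of Cimicifugae Rhizoma was described across 17269 expressed genes, from 3 libraries of treated cells and 3 libraries of vehicle-treated cells among the 60 libraries of the series. The 3 treated libraries carry the extract, its dose of 500 µg/mL and a replicate number in their labels, and the 3 vehicle libraries carry DMSO. A549 is an established human lung adenocarcinoma line grown in RPMI medium with serum, and all cells were harvested 24 h after the addition of extract or vehicle. Further groups of 3 libraries, used below for reference, received Cimicifugae at 100 µg/mL (medium dose), at 20 µg/mL (low dose), or Citri Unshius Pericarpium (tangerine peel, called Citri) at 500 µg/mL. Means of 3 libraries that received Bupleuri Radix (called Bupleuri) at 500 µg/mL are also given for some genes. DMSO is given as 0.1% for the vehicle libraries and as 2% in the text on the design, and no DMSO content is given for the extract libraries. Whether replicates were separate cultures is not stated in the labels. The p-values rest on the spread within all 19 groups of 3 libraries of the series, fitted together (57 libraries), and that spread may be technical.

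Cimicifugae Rhizoma is the dried rhizome of Actaea (formerly Cimicifuga) species, and its hot-water extract is a mixture of many compounds. Among the regulatory systems described below, the aryl hydrocarbon receptor is a ligand-activated transcription factor that binds flat aromatic molecules, pairs with ARNT and switches on genes of the CYP1 family together with its own repressors. NR4A1, NR4A2 and NR4A3 are orphan nuclear receptors made within minutes of a growth factor or cyclic AMP signal. The ID proteins are helix-loop-helix factors without a DNA-binding region, made when BMP receptors activate SMAD proteins.

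At 500 µg/mL 340 of the 17269 genes tested (1.97%) differed from vehicle by edgeR's quasi-likelihood test at an adjusted p under 0.05. Of these, 188 rose (1.09% of those tested) and 152 fell (0.88%). The changes were mostly small, with a median log2 fold of 0.42 among the risen and -0.35 among the fallen genes, against 0.005 over all genes tested. A log2 fold of at least 0.5 was reached by 64 risen and 48 fallen genes, and one of at least 1 by 13 and 6. Levels are given in CPM, counts per library brought to 1 scale with a correction for composition and none for gene length. Fallen genes drew more counts than risen ones, with a median level of 58.1 CPM and 37.5% of them at or above 100 CPM. The median of the risen genes was 13.6 CPM, with 6.38% at or above 100 CPM, beside 11.3% of all genes tested. The median summed exon length was 5138 bases among risen and 5286 bases among fallen protein-coding genes. Protein-coding genes made up 95.2% of the risen, 92.8% of the fallen and 79.0% of all genes tested. In all 188 risen and all 152 fallen genes the 3 treated libraries did not overlap with the 3 vehicle libraries, as was also the case for 4980 of all genes tested (28.8%). The largest rises and falls named below were also required not to overlap. Where such separation of a called gene is given below, it is a description and no further support. The number of calls was smaller without any 1 of the 6 compared libraries, at 149 without vehicle 2, 156 without vehicle 1 or treated 2, 176 without treated 1, 199 without treated 3 and 215 without vehicle 3. It was 1932 when the 6 libraries were fitted alone, of which 907 were higher and 1025 lower.

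**Figure D1:**
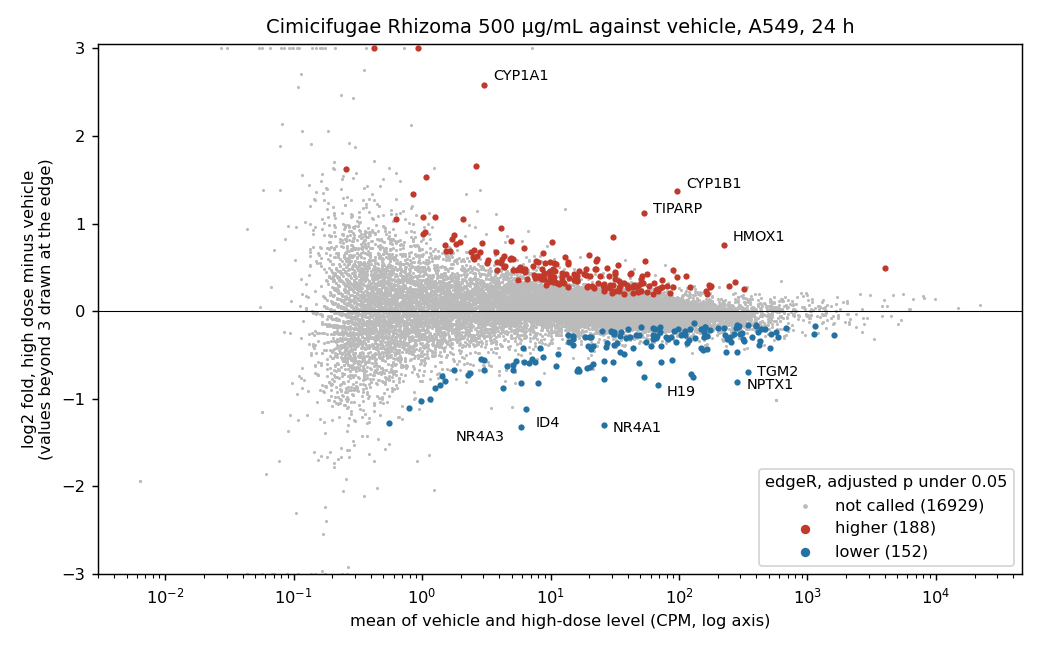
Each point is a gene, placed by its mean level in vehicle and treated libraries (CPM, log axis) and its log2 fold at 500 µg/mL against vehicle, with 188 risen genes in red, 152 fallen genes in blue and genes that did not pass the test in grey. CYP1A1 stands highest among the labelled genes at 2.58, NR4A1 and NR4A3 lowest near -1.3, and above 100 CPM fallen genes outnumber risen ones, 37.5% of the fallen against 6.38% of the risen lying there.

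The 6 libraries held between 18894778 (vehicle 3) and 29407642 (treated 3) counts. Mitochondrially encoded genes took 8.84% to 9.16% of counts in treated and 7.91% to 8.54% in vehicle libraries, and ribosomal protein genes 5.23% to 5.36% against 4.84% to 5.24%. The balance of long over short transcripts (the difference in mean log2 level between genes over 6000 and under 1500 bases) ran from 1.87 to 1.92 in treated and from 1.87 to 2.03 in vehicle libraries. It was lower in Cimicifugae low 2 (1.36) and medium 2 (1.54) than in the other libraries of those doses, which lay between 1.86 and 1.91. The part of these differences in the results was not tested. Vehicle labels begin with B1 and those of Cimicifugae and Citri with 5, so extract and label set cannot be told apart against vehicle, while comparisons with the low dose and with Citri stay within label 5. No pair within the treated or the vehicle libraries agreed within sampling noise, with treated 2 and 3 the closest of these 6 pairs (chi-square over degrees of freedom 2.43) and vehicle 1 and 3 the farthest (5.5). At the lower doses, pairs with Cimicifugae low 2 had 40.4 and 41.7 and pairs with medium 2 had 20.8 and 22.5. Replicates 1 and 3 had 3.91 at the low and 4.45 at the medium dose. All 8 markers of A549 were present, summing to 1.61e+04 to 1.68e+04 CPM in vehicle and 1.58e+04 to 1.59e+04 CPM in treated libraries, with 0 called by edgeR or DESeq2 and 1 at an unadjusted p under 0.05. Of 8 markers of alveolar type 2 cells, 6 lay under 1 CPM in all 6 libraries and SFTPA1 at 0. Their sum of 21.8 to 25.0 CPM in vehicle and 29.4 to 31.2 CPM in treated libraries was almost wholly ABCA3, which did not pass the test. The leukocyte genes PTPRC and CD3E and the fibroblast gene DCN were at 0 in all 6.

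Targets of the aryl hydrocarbon receptor held the 4 largest rises among called genes whose higher group averaged 5 CPM or more, clone and LINC names passed over. CYP1A1 and AHRR met that cut only in treated libraries, with means of 5.23 and 5.40 CPM. Of the risen genes of any level, 13 reached a log2 fold of at least 1. Under the cut, VIPR1 rose by 1.53, more than CYP1B1 (1.37). Of 10 genes listed as targets, 8 passed the filter on low counts and 4 of these rose (CYP1A1, CYP1B1, TIPARP and AHRR), where 1.09% of all genes tested rose, and none fell. The median log2 fold of the 8 was 0.54. This list and those below were drawn up with earlier results of these data known. Their counts of calls stand beside 1.09% risen and 0.88% fallen of all genes tested. The 4 were called without any single library and under every other setting tried. CYP1A1 and CYP1B1 encode monooxygenases that oxidise polycyclic aromatic compounds, and TIPARP and AHRR encode repressors of the receptor. The 300 bases around the start of CYP1A1 and TIPARP, from 250 before to 50 after it (RefSeq, GRCh38.p14), are shown because both genes more than doubled. The table holds 1 start for CYP1A1 and 3 for TIPARP, of which only the one shown holds the motif. CYP1A1 lies at chr15:74725479-74725778 on the minus strand and TIPARP at chr3:156674340-156674639 on the plus strand. Capitals mark the core of the receptor's response element, GCGTG or its reverse complement CACGC.
CYP1A1: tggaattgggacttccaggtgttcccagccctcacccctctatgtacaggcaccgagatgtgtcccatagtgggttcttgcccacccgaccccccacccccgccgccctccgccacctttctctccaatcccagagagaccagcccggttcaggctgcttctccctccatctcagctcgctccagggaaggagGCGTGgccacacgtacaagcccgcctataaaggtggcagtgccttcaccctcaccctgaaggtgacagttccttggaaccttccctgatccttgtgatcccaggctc
TIPARP: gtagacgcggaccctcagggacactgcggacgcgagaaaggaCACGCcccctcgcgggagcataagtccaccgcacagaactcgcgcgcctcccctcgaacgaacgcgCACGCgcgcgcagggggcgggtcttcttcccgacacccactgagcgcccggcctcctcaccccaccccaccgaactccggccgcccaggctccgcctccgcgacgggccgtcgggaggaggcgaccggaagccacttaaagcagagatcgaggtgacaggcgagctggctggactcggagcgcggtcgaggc
The core stands 57 bases before the start of CYP1A1, and 208 and 142 bases before the TIPARP start shown. GCGTG was present on either strand in 36.5% of 35116 promoters of this length, and 40.6% of 27305 genes held it at 1 or more of their starts. It was found at any start of 12 of the 21 risen and 15 of the 28 fallen genes under the naming rule that matched a RefSeq promoter.

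CYP1A1 (ENSG00000140465, chromosome 15, 74719542 to 74725610) was barely expressed in vehicle libraries, at 0.914, 1.11 and 0.524 CPM, and reached 5.07, 5.198 and 5.42 CPM in treated ones. The groups were far apart, and the log2 fold was 2.58 ± 0.19 (standard error, adjusted p = 6.09e-13). At 20 µg/mL its libraries, at 0.863 to 1.66 CPM, overlapped with vehicle, and at 100 µg/mL they lay between vehicle and the high dose, at 2.18 to 2.68 CPM. CYP1B1 (chromosome 2, 38066973 to 38109902) was at 55.0, 52.7 and 53.9 CPM in vehicle and 134, 144 and 139.7 CPM in treated libraries (1.37 ± 0.10, adjusted p = 6.75e-13). At 100 µg/mL its libraries held 77.8 to 96.2 CPM, all above vehicle and below the high dose. The locus overlaps CYP1B1-AS1 and RMDN2 on the opposite strand, and the strand setting of the counting is not given in the sources used here. TIPARP (chromosome 3, 156673235 to 156706770) went from 33.6, 33.1 and 33.5 CPM to 72.0, 74.0 and 71.4 CPM (1.12 ± 0.11, adjusted p = 2.04e-09). AHRR, on chromosome 5 and overlapping PDCD6 on the same strand, went from 2.78, 2.95 and 2.62 CPM to 5.01, 6.04 and 5.16 CPM (0.95 ± 0.18, adjusted p = 0.000638). Both repressors separated fully from vehicle, as did every called gene and as was required of the largest rises, which include both. The SD among treated libraries was 0.558 CPM for AHRR and 1.36 CPM for TIPARP. Of the other tested targets, the aldehyde dehydrogenase gene ALDH3A1 had a log2 fold of 0.13 (adjusted p = 0.795), the monooxygenase gene CYP2S1 0.12 (0.591), the glucuronosyltransferase gene UGT1A6 -0.03 (0.985) and the xanthine dehydrogenase gene XDH 0.03 (0.983). CYP1A2 and SERPINB2 were under the low-count filter. None of the 6 genes of the receptor complex passed the test by edgeR or DESeq2, 2 having an unadjusted p under 0.05. Among them the receptor gene AHR had a log2 fold of -0.24 (adjusted p = 0.377) and its partner ARNT -0.06 (0.929).

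Heme oxygenase 1 led the risen genes of heme and iron handling. Of 12 such genes tested, 5 rose (HMOX1, SLC48A1, FECH, SLC40A1 and FTH1), where 1.09% of all genes tested did so. None fell, and the median log2 fold was 0.15. HMOX1 (chromosome 22, 35380361 to 35394214), which breaks heme down to biliverdin, iron and carbon monoxide, was at 165, 158 and 176 CPM in vehicle and 289, 291 and 265 CPM in treated libraries (0.76 ± 0.09, adjusted p = 5.3e-08). SLC48A1, a heme transporter, went from 46.6, 46.7 and 51.1 CPM to 65.9, 63.3 and 64.3 CPM (0.42 ± 0.07, adjusted p = 3.19e-05). FECH, the ferrochelatase that inserts iron to form heme, went from 61.8, 62.1 and 61.8 CPM to 76.6, 72.2 and 72.9 CPM (0.26 ± 0.05, adjusted p = 0.000542). Its call ended with no filter on low counts (adjusted p = 0.0585). All 3 genes were clear of vehicle in each treated library. SLC40A1, which encodes the iron exporter ferroportin, rose by 0.41 ± 0.09 (adjusted p = 0.00375), a call that ended without treated 2 (adjusted p = 0.0833). FTH1, the ferritin heavy chain, ranged from 2815 to 3849 CPM in vehicle and from 4646 to 4742 CPM in treated libraries (0.49 ± 0.12, adjusted p = 0.0228). Its vehicle libraries had an SD of 517 CPM, and its call ended without vehicle 1, vehicle 2 or any of the treated libraries (adjusted p = 0.0667 to 0.247). Without treated 2 the list had 3 calls. The transferrin receptor gene TFRC, which takes iron up, had a log2 fold of -0.25 (adjusted p = 0.304).

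NRF2 is an oxidant-sensing transcription factor with a wider set of targets. HMOX1, FTH1 and GCLM rose among 22 tested, where 1.09% of all genes tested rose. None fell, and the median log2 fold was 0.12. GCLM, a subunit of the enzyme that starts glutathione synthesis, went from 288, 286 and 304 CPM to 352, 341 and 351 CPM (0.25 ± 0.06, adjusted p = 0.0119). That call ended without treated 1, treated 3, vehicle 1 or vehicle 2 (adjusted p = 0.0531 to 0.0842), and without any of those 4 libraries HMOX1 was the only member called. With the 6 libraries fitted alone 12 of the 22 were called, and 7 when the long-short balance was a covariate. NQO1, a quinone reductase often used to read out NRF2, was at 1557 to 1658 CPM in vehicle and 1754 to 1812 CPM in treated libraries (0.16 ± 0.11, adjusted p = 0.644). It did not overlap between the groups but was within the spread of Cimicifugae low, at 1613 to 1971 CPM. SLC7A11, the cystine transporter, had a log2 fold of -0.01 (adjusted p = 0.993) and TXNRD1, thioredoxin reductase, -0.12 (0.569). A549 carries a KEAP1 mutation that keeps NRF2 active without treatment.

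All 3 NR4A receptors fell, NR4A1 to 0.408 and NR4A3 to 0.401 of the vehicle level by the fitted fold. NR4A1 (chromosome 12, 52022832 to 52059507) was at 36.6, 36.0 and 38.1 CPM in vehicle and 15.9, 15.5 and 13.7 CPM in treated libraries (-1.29 ± 0.08, adjusted p = 2.42e-16). NR4A3 (chromosome 9, 99821855 to 99866891) went from 8.83, 8.68 and 7.49 CPM to 3.15, 3.62 and 3.29 CPM (-1.32 ± 0.14, adjusted p = 3.48e-08). For both genes the medium dose lay between, at 24.1 to 27.95 CPM for NR4A1 and 5.08 to 5.69 CPM for NR4A3. NR4A2 was at 3.27, 3.95 and 3.67 CPM in vehicle and 2.74, 2.82 and 1.87 CPM in treated libraries (-0.55 ± 0.15, adjusted p = 0.0456). Its call ended without each of the 6 libraries in turn (adjusted p = 0.0521 to 0.352) and with the replicate number as a block (0.0518). The NR4A genes were also the only 3 of 12 genes of the cyclic AMP response list to be called, against a list median of -0.18. Its other members included the kinase gene SIK1, with a log2 fold of 0.22 (adjusted p = 0.894), the phosphodiesterase gene PDE4D with -0.22 (0.57) and the phosphatase gene DUSP1 with -0.24 (0.187).

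Few other immediate-early transcription factors were called. Of 17 listed, 15 were tested, 2 fell (KLF10 and KLF4), none rose, and the median log2 fold was -0.12. KLF4, a zinc finger factor of epithelial cells, went from 9.94, 9.41 and 7.96 CPM to 5.76, 6.59 and 6.01 CPM (-0.58 ± 0.10, adjusted p = 0.000169). KLF10, induced by TGF-beta in many cells, went from 91.9, 93.1 and 90.9 CPM to 73.5, 72.3 and 74.9 CPM (-0.32 ± 0.05, adjusted p = 4.64e-06). FOS had a log2 fold of -0.37 (adjusted p = 0.267), EGR1 -0.41 (0.427), JUN -0.05 (0.879) and MYC 0.06 (0.767). In the list of ERK feedback genes 2 of 13 fell, and the list median was 0.05. These were EPHA2, an ephrin receptor, from 104 to 108 CPM in vehicle to 82.1 to 84.3 CPM in treated libraries (-0.35 ± 0.05, adjusted p = 2.68e-05), and DUSP5, a nuclear ERK phosphatase (-0.35 ± 0.08, adjusted p = 0.00396). Of 8 EGF family ligands and receptors, ERBB3 rose from 6.31 to 7.23 CPM in vehicle to 10.45 to 11.2 CPM in treated libraries (0.66 ± 0.10, adjusted p = 1.92e-05).

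Among the BMP targets 4 of 9 fell (ID4, ATOH8, ID2 and ID3), where 0.88% of all genes tested did so, and none rose. All 9 log2 folds were below 0, with a median of -0.31, and the 4 calls stood without any single library and under every other setting tried. ID4 (chromosome 6, 19837386 to 19840684) was at 8.72, 9.19 and 8.75 CPM in vehicle and 4.05, 4.43 and 3.81 CPM in treated libraries (-1.12 ± 0.13, adjusted p = 8.25e-08). ID2 (chromosome 2, 8678845 to 8684453), which overlaps ID2-AS1, went from 152, 151 and 158 CPM to 93.8, 90.2 and 96.2 CPM (-0.71 ± 0.10, adjusted p = 9.84e-06). ID3 (chromosome 1, 23557918 to 23559794) went from 155, 159 and 169 CPM to 94.0, 99.7 and 93.6 CPM (-0.75 ± 0.15, adjusted p = 0.0016). ATOH8, a helix-loop-helix factor, went from 9.94, 9.71 and 11.1 CPM to 5.52, 6.19 and 5.72 CPM (-0.82 ± 0.11, adjusted p = 3.04e-06). All 4 genes were well below vehicle in each treated library. In the Bupleuri libraries, not tested against these, the means were 3.14 CPM for ID4, 97.55 CPM for ID2, 108.6 CPM for ID3 and 4.77 CPM for ATOH8. ID1 did not pass, at 155, 164 and 185 CPM in vehicle and 127, 143 and 135 CPM in treated libraries (-0.31 ± 0.17, adjusted p = 0.496). It passed against the low dose (-0.79 ± 0.17, adjusted p = 0.00628), where its libraries lay above vehicle at 194, 291 and 216 CPM. It also passed against vehicle when the 6 libraries were fitted alone (adjusted p = 0.0042) and when the long-short balance was a covariate (0.00158). SMAD6 and SMAD7, the inhibitory SMADs, had log2 folds of -0.14 (adjusted p = 0.703) and -0.004 (0.994).

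Among 14 tested ligands, antagonists and receptors of the BMP pathway 1 rose and 1 fell, with a median of -0.04. GREM1, a secreted BMP antagonist (chromosome 15, 32717974 to 32745107), rose from 4.76, 4.10 and 5.13 CPM to 7.51, 8.09 and 7.36 CPM (0.72 ± 0.12, adjusted p = 0.000159). BMP6, a ligand, fell from 7.39, 7.75 and 9.22 CPM to 5.31, 4.80 and 5.95 CPM (-0.59 ± 0.13, adjusted p = 0.00413), a call that ended without treated 2 (adjusted p = 0.0564) or vehicle 3 (0.055). Neither gene overlapped between the groups. The receptor genes BMPR1A and BMPR2 had log2 folds of -0.03 (adjusted p = 0.929) and -0.15 (0.837).

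**Figure D2:**
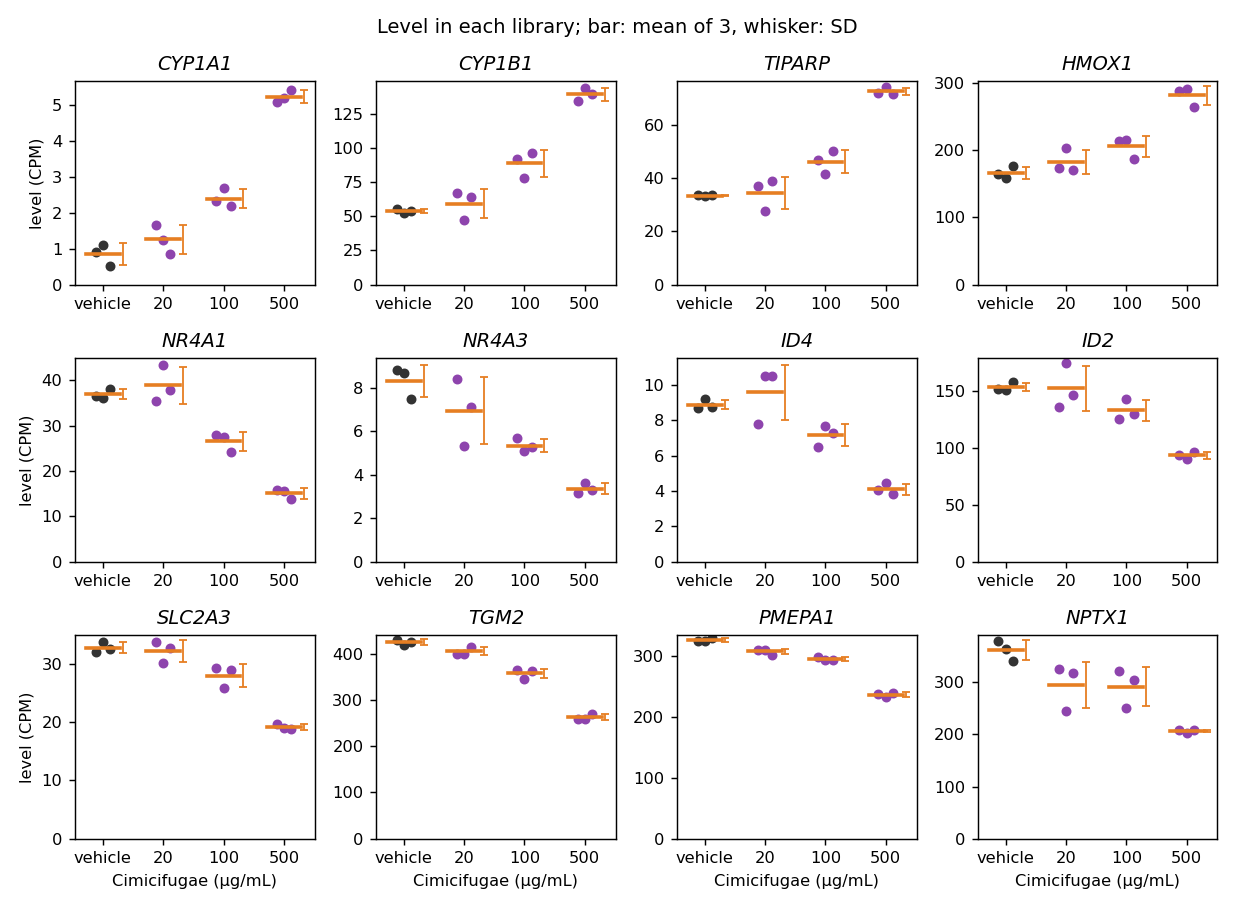
The level of 12 genes (CPM, from 0) is drawn for each library of vehicle and of Cimicifugae at 20, 100 and 500 µg/mL, with the mean of 3 libraries as a bar and the SD as a whisker. The 500 µg/mL libraries stand clear of vehicle in every panel, as they do for every called gene, and the 100 µg/mL libraries lie between them in every panel.

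Genes downstream of TGF-beta and YAP fell in part. Of 12 TGF-beta targets tested 3 fell (PMEPA1, TGFBI and BHLHE40), where 0.88% of all genes tested did so. None rose, and the median log2 fold was -0.13. PMEPA1, a membrane protein that restrains TGF-beta receptors, went from 324, 324 and 329 CPM to 237, 232 and 239.7 CPM (-0.46 ± 0.05, adjusted p = 6.69e-09). TGFBI, an extracellular matrix protein, went from 1206 to 1236 CPM in vehicle to 986 to 1059 CPM in treated libraries (-0.26 ± 0.06, adjusted p = 0.0133), and its call ended without treated 1, treated 2, vehicle 1 or vehicle 3 (adjusted p = 0.0538 to 0.109). BHLHE40, a transcriptional repressor that was also the only one of 16 clock genes called, fell by 0.22 ± 0.06 (adjusted p = 0.0218), and its call ended without each of the 6 libraries in turn (0.0544 to 0.134). PMEPA1 alone was left on this list without vehicle 1, vehicle 3, treated 1 or treated 2. Of 10 YAP targets 3 fell and 1 rose, beside 0.88% and 1.09% of all genes tested, with a median of -0.21. ANKRD1, a muscle and stress ankyrin-repeat protein, went from 12.8, 13.8 and 13.5 CPM to 8.61, 9.15 and 8.25 CPM (-0.62 ± 0.10, adjusted p = 5.02e-05). NUAK2, a kinase, went from 69.6 to 70.0 CPM in vehicle to 55.8 to 56.2 CPM in treated libraries (-0.32 ± 0.06, adjusted p = 0.00022). Neither gene overlapped between treated and vehicle libraries. The calls on the receptor kinase gene AXL (-0.20 ± 0.05, adjusted p = 0.0101) and on the LIM protein gene AJUBA, which rose (0.19 ± 0.05, adjusted p = 0.0363), ended without 4 and 6 of the 6 libraries (up to 0.157 and 0.195). The list had 2 calls without vehicle 1, vehicle 2, treated 2 or treated 3.

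The non-coding gene NKILA (chromosome 20, 57710183 to 57712780, plus strand), known as a restraint on NF-kB, overlaps the start of PMEPA1 (57648392 to 57711536, minus strand). It was at 5.14, 5.57 and 5.81 CPM in vehicle and 2.71, 3.33 and 2.93 CPM in treated libraries (-0.88 ± 0.13, adjusted p = 8.4e-06), so both genes of the pair were lower in each treated library. The strand setting of the counting is not given, so reads from the shared part cannot be assigned with certainty. Of the 28 fallen genes with a RefSeq promoter, 4 held the cyclic AMP response element TGACGTCA (NKILA, PMEPA1, DIO2 and EPHA2), a palindrome present in 1.85% of the 35116 promoters and at any start of 2.25% of the 27305 genes. The NKILA and PMEPA1 windows overlap and share 1 match. Of the 21 risen genes none held it, which says only that these letters are not in those windows. The promoters of PMEPA1 (chr20:57709966-57710265, minus strand), DIO2 (chr14:80212129-80212428, minus strand) and EPHA2 (chr1:16156020-16156319, minus strand) are shown with the element in capitals, so that its place can be compared.
PMEPA1: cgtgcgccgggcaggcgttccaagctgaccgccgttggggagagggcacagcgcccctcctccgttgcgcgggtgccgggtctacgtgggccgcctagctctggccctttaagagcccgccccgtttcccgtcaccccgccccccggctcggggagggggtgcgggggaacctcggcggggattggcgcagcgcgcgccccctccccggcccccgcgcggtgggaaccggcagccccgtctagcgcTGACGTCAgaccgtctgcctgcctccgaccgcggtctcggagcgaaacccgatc
DIO2: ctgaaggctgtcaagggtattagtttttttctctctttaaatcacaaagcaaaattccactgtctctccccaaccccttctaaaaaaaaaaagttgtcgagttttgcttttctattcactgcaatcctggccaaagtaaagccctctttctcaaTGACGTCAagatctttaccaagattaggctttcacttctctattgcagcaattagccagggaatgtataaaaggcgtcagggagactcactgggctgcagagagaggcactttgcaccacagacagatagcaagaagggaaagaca
EPHA2: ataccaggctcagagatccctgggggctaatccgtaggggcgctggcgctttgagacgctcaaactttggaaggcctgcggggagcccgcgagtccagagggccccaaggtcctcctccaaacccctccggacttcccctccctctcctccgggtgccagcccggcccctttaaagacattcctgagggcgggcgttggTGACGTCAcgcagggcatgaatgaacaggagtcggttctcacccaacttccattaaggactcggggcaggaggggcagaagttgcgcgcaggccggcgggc
The table holds 4 starts for PMEPA1, 2 for DIO2 and 1 for EPHA2, and the element is near only 1 of each. It begins 4 bases before the start shown in PMEPA1, 96 before it in DIO2 and 51 before it in EPHA2. A match is a description of the sequence and no evidence of binding. The antioxidant response element TGACNNNGC, searched on both strands, was found in 3 of the 21 risen and 3 of the 28 fallen genes and in 13.3% of all promoters (16.1% of genes at any start). The GC-rich SMAD element GGCGCC was found in 6 and 5 of them and in 19.2% of all promoters (22% of genes).

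H19, an imprinted non-coding RNA of chromosome 11 (1995176 to 2001470) that hosts MIR675, fell from 86.3, 83.0 and 93.7 CPM to 51.3, 49.9 and 45.2 CPM (-0.84 ± 0.11, adjusted p = 7.28e-07). It was the only called member of 10 imprinted growth genes. Its neighbour IGF2, a fetal growth factor, was at 4.83, 4.13 and 5.76 CPM in vehicle and 4.90, 4.25 and 5.59 CPM in treated libraries, fully overlapping (0.01 ± 0.18, adjusted p = 0.993). IGFBP3, which binds insulin-like growth factors in the medium, fell from 169.6 to 172 CPM in vehicle to 124 to 129.8 CPM in treated libraries (-0.42 ± 0.05, adjusted p = 2.75e-07). It was the only one of 13 genes of the insulin-like growth factor axis called. At 20 and 100 µg/mL IGFBP3 stayed between 165 and 171 CPM, so among the Cimicifugae libraries its lower level was found at 500 µg/mL.

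Few inflammatory genes were called. None of 16 NF-kB subunits and targets was called by edgeR or DESeq2 and none had an unadjusted p under 0.05, with a median log2 fold of 0.001. CXCL5, a neutrophil-attracting chemokine, fell from 81.3, 83.5 and 83.5 CPM to 63.3, 62.6 and 63.1 CPM (-0.39 ± 0.05, adjusted p = 1.37e-06), and the medium dose was as low, at 57.7 to 65.0 CPM. CXCL8 was near 1 CPM, at 0.943 to 1.11 CPM in vehicle and 0.559 to 1.06 CPM in treated libraries, overlapping (adjusted p = 0.544), and CXCL1, CXCL2 and CXCL3 did not pass either. PTGS2, the inducible cyclooxygenase of prostaglandin synthesis, fell from 19.7, 18.9 and 21.3 CPM to 12.4, 13.2 and 11.6 CPM (-0.69 ± 0.11, adjusted p = 3.12e-05). PLA2G4A, the phospholipase that frees its substrate, fell by 0.36 ± 0.09 (adjusted p = 0.0162), and its call ended without any library other than vehicle 1 (0.0515 to 0.169). The 14 interferon response genes tested had a median log2 fold of 0.17, and none fell. IFIT1, an interferon-induced antiviral gene, lay between 0.799 and 2.04 CPM in the 6 libraries (0.68 ± 0.19, adjusted p = 0.0494), and its call ended without any library other than vehicle 3 (0.0727 to 0.466), by DESeq2 (0.0783) and with the replicate number as a block (0.0527).

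Of 25 genes of cholesterol synthesis and uptake none fell, 23 had log2 folds above 0, and the median was 0.13. INSIG1, the sterol-regulated anchor of SREBP processing, rose from 33.9, 36.4 and 38.5 CPM to 50.4, 47.8 and 48.8 CPM (0.43 ± 0.05, adjusted p = 4.18e-07). MSMO1, a methylsterol oxidase (0.28 ± 0.07, adjusted p = 0.0108), lost its call without vehicle 1 (0.108). The call on INSIG1 stood without any single library. Of 11 genes of fatty acid synthesis and 6 LXR targets, SREBF1, which encodes a regulator of lipid synthesis, was the one called, at 150.4 to 155 CPM in vehicle and 182 to 194 CPM in treated libraries (0.30 ± 0.07, adjusted p = 0.012). It was as high at 20 µg/mL, at 182 to 205 CPM, and its call ended without treated 1, treated 2, vehicle 1 or vehicle 2 (0.0505 to 0.0771).

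Of 22 p53 targets 3 rose, beside 1.09% of all genes tested, and none fell, with a median of 0.10. The cell-death gene BBC3 went from 5.63, 5.83 and 7.17 CPM to 9.77, 8.82 and 8.91 CPM (0.57 ± 0.12, adjusted p = 0.00546). Its call ended without vehicle 1 (0.0738) or vehicle 2 (0.0588). TP53INP1, a stress-induced autophagy and death protein (0.48 ± 0.12, adjusted p = 0.0204), and GDF15, a secreted stress cytokine (0.49 ± 0.14, adjusted p = 0.0456), lost their calls without each of the 6 libraries in turn (up to 0.119 and 0.225). The list had no call without vehicle 1 or vehicle 2 and 1 without any of the other 4. NUPR1 was the only one of 15 ATF4 and CHOP stress genes called (0.57 ± 0.14, adjusted p = 0.0179), and its call ended without any library other than vehicle 3 (0.0537 to 0.128). None of 15 endoplasmic reticulum folding genes and 10 heat shock genes was called by edgeR or DESeq2, with 1 and 0 at an unadjusted p under 0.05.

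Proliferation genes gave 1 call on each of 2 lists. RRM2, the ribonucleotide reductase subunit that limits DNA synthesis, was at 337 CPM in all 3 vehicle libraries and at 282, 283 and 284 CPM in treated ones (-0.25 ± 0.04, adjusted p = 8.57e-05). It was the only one of 18 DNA replication genes called, and its call ended with no filter on low counts (0.0804). Of 17 mitosis genes 16 had log2 folds below 0, with a median of -0.11, and only the kinase gene AURKA was called (-0.18 ± 0.05, adjusted p = 0.0494). That call ended without each of the 6 libraries in turn (0.0994 to 0.196), with the replicate number as a block (0.0572) and in the robust fit (0.0511). With the 6 libraries fitted alone 7 mitosis and 4 replication genes were called, and 3 and 4 when the long-short balance was a covariate. CCNG2, a cyclin that accumulates in arrested cells, rose from 3.12, 3.62 and 4.08 CPM to 6.21, 6.33 and 6.18 CPM (0.80 ± 0.13, adjusted p = 5.52e-05).

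Hormone- and nutrient-linked genes gave single calls. SGK1, a kinase induced by glucocorticoids, fell from 49.2 to 51.7 CPM in vehicle to 36.4 to 38.6 CPM in treated libraries (-0.42 ± 0.06, adjusted p = 2.02e-06), the only one of 9 glucocorticoid-induced genes called. Of 6 genes of fatty acid use tested, CPT1A, which admits fatty acids to mitochondria, rose (0.28 ± 0.07, adjusted p = 0.021) and PDK4, which turns off pyruvate oxidation, fell (-0.40 ± 0.10, adjusted p = 0.0282). Both calls depended on single libraries, ending without 4 and 6 of the 6 (up to 0.149 and 0.159). Calls on the Wnt feedback gene RNF43 (-0.67 ± 0.16, adjusted p = 0.0171), the arrestin-like gene ARRDC3 (-0.30 ± 0.07, 0.00843), the zinc exporter gene SLC30A1 (-0.30 ± 0.08, 0.0423) and the autophagy gene WIPI1 (0.50 ± 0.11, 0.00893) were each the only one on their list. They ended without 4, 2, 6 and 2 of the 6 libraries, with adjusted p up to 0.133, 0.0526, 0.181 and 0.0777.

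Of the 43 lists, 11 had no member called. Beyond those given above these were Notch targets, hypoxia and glycolysis, epithelial and mesenchymal state, integrins, laminins and collagens, fibrinogen and acute phase, drug transporters, and the mitochondrially encoded proteins. By DESeq2 1 drug transporter was called and none on the other lists, and between 0 and 3 members of each had an unadjusted p under 0.05. All 13 mitochondrially encoded protein genes had log2 folds above 0, with a median of 0.13, beside the higher mitochondrial share of the treated libraries given above. In all, 56 of the 490 distinct list members tested were called (11.4%), against 1.97% of all genes. The lists were drawn up with earlier results of these data known, so this share is not independent evidence. Most lists had more calls with the 6 libraries alone and with the covariate, for example 10 and 6 for cholesterol genes, 7 and 5 for p53 targets, 7 and 6 for BMP targets, and 0 and 0 for NF-kB genes.

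**Figure D3:**
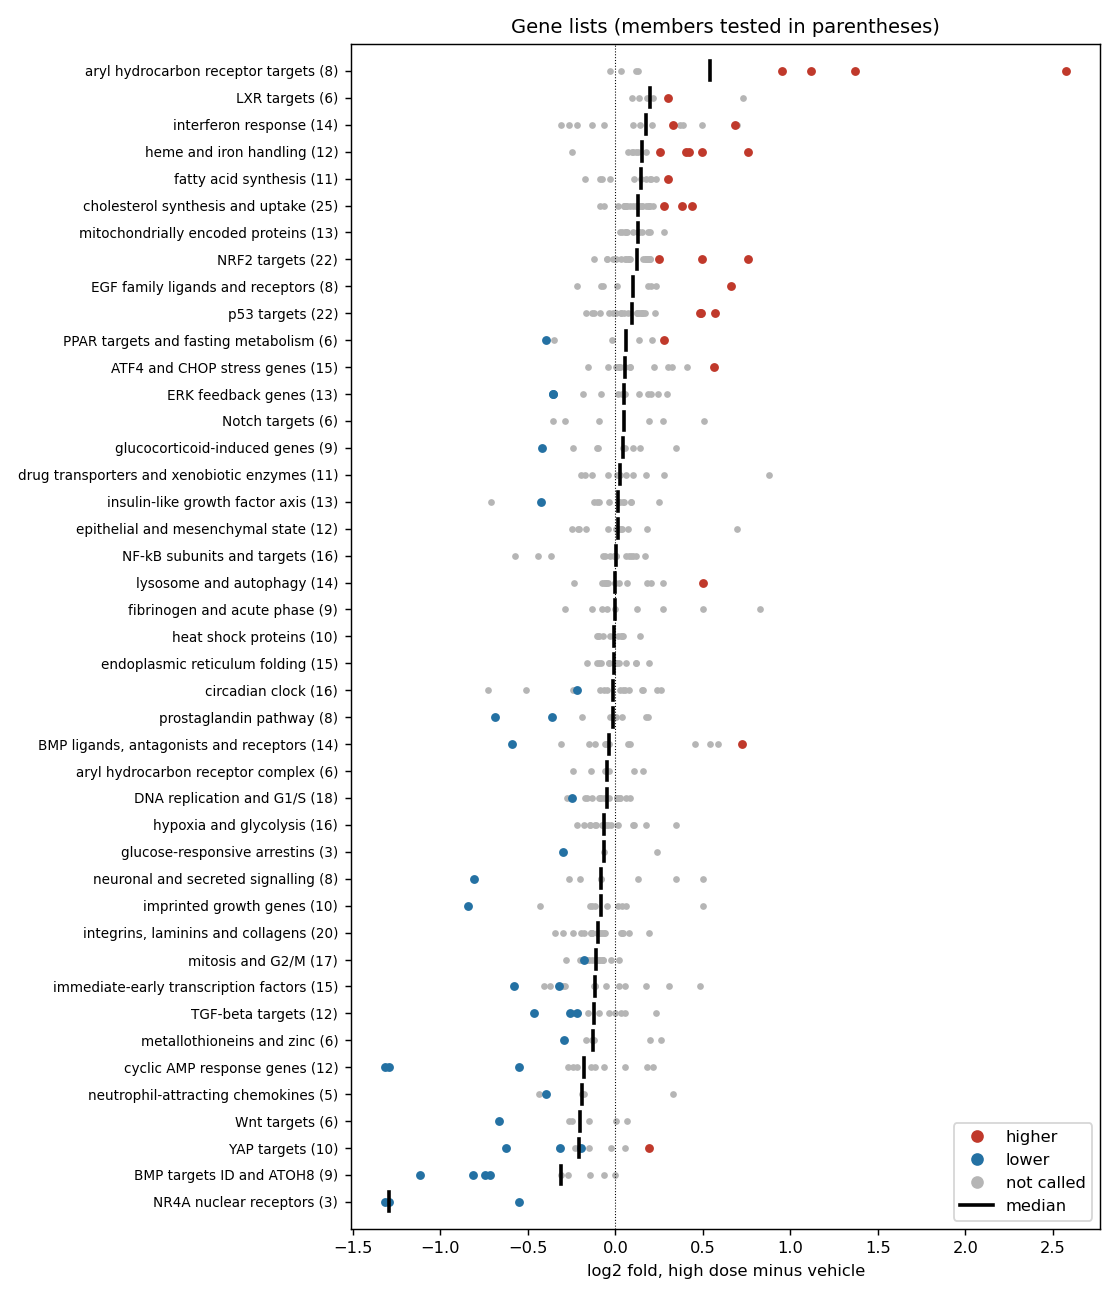
Each row is a gene list with its number of tested members, and each point a member at its log2 fold at 500 µg/mL against vehicle, red where it rose, blue where it fell and grey where it did not pass, with a black bar at the list median. The NR4A receptors (median -1.29) and the BMP targets (-0.31) lie left, the aryl hydrocarbon receptor targets (0.54) right, and most other medians lie within 0.2 of 0.

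Several of the largest changes belonged to none of these groups. RAP1GAP, which inactivates the small GTPase RAP1, rose from 21.3, 20.0 and 23.7 CPM to 39.0, 41.6 and 36.6 CPM (0.85 ± 0.11, adjusted p = 2.02e-06). ADAMTS10, a secreted metalloprotease of microfibrils, rose from 15.1 to 15.9 CPM in vehicle to 22.4 to 25.3 CPM in treated libraries (0.64 ± 0.12, adjusted p = 0.00107). TMEM156, a membrane protein, rose from 10.1 to 10.2 CPM to 15.0 to 16.3 CPM (0.62 ± 0.08, adjusted p = 2e-06). All 3 were named among the largest rises, for which no overlap with vehicle was required. PELI2, an E3 ligase of innate immune signalling, rose by 0.60 ± 0.13 (adjusted p = 0.00648) and lost its call without treated 1 (0.0879). ITGB1-DT, a non-coding gene at the start of ITGB1 (0.63 ± 0.17, adjusted p = 0.0388), and the membrane protein gene FAM171A2 (0.61 ± 0.16, 0.039) lost theirs without 6 and 5 of the 6 libraries (up to 0.17 and 0.238).

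Among the falls, TGM2, the protein-crosslinking tissue transglutaminase (chromosome 20, 38127387 to 38166578), was at 430.2, 418 and 426 CPM in vehicle and 259, 258 and 269.7 CPM in treated libraries (-0.69 ± 0.07, adjusted p = 9.68e-09). It overlaps RPRD1B. SLC2A3, the glucose transporter GLUT3, went from 32.0, 33.7 and 32.5 CPM to 19.6, 18.96 and 18.7 CPM (-0.78 ± 0.07, adjusted p = 1.08e-10). NPTX1, a secreted pentraxin of synapses and the only called gene of 8 neuronal and secreted signalling genes, went from 379, 364 and 341 CPM to 208, 203 and 208 CPM (-0.81 ± 0.12, adjusted p = 1.49e-05). These genes are among the largest falls, which were required not to overlap with vehicle. The SDs among the treated libraries were 6.39 CPM for TGM2, 0.474 CPM for SLC2A3 and 2.67 CPM for NPTX1. DIO2, the deiodinase that activates thyroid hormone, went from 67.8, 67.7 and 64.1 CPM to 39.1, 39.8 and 40.0 CPM (-0.75 ± 0.11, adjusted p = 1.17e-05). STC1, a secreted glycoprotein hormone, went from 7.58, 7.12 and 7.80 CPM to 4.22, 4.21 and 4.27 CPM (-0.82 ± 0.13, adjusted p = 4.66e-05).

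The comparison with the low dose asks whether the high dose differs from libraries that share its label set. It called 232 genes (1.34%), 108 higher and 124 lower. The comparison with Citri asks the same of another extract at the same dose and called 119 genes (0.689%), 45 higher and 74 lower. Both share the 3 treated libraries with the vehicle comparison, so their values are set side by side and not counted as support. NR4A1 had log2 folds of -1.29 against vehicle, -1.37 against the low dose and -0.89 against Citri. CYP1A1 had 2.58, 2.06 and 1.46 in the same order, and CYP1B1 1.37, 1.23 and 0.56. For ID4 they were -1.12, -1.23 and -1.05, and for TGM2 -0.69, -0.62 and -0.53. Adjusted p-values of these 5 genes in the 2 further comparisons were at most 0.000814. HMOX1 (0.76, 0.62 and 0.47, adjusted p at most 0.000804) and SLC2A3 (-0.78, -0.75 and -0.59, at most 3.78e-07) passed in all 3 as well. These genes therefore differed from vehicle, the low dose and Citri. A difference from Bupleuri at the same dose, of another label set, was not tested. The Bupleuri mean of ID4 was 3.14 CPM (treated 4.10, vehicle 8.88), of NR4A1 19.8 CPM (15.0, 36.9) and of SLC2A3 23.2 CPM (19.1, 32.7). It was 2.53 CPM for CYP1A1 (5.23, 0.848), 90.25 CPM for CYP1B1 (139, 53.9), 186 CPM for HMOX1 (281.5, 166) and 376 CPM for TGM2 (262, 425).

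Of the 188 risen genes 61 were also called higher than the low dose, and of the 152 fallen genes 76 were called lower. Against Citri these numbers were 36 and 57. The other called genes differed from vehicle without passing in the same direction against the low dose, and some of them follow. ADAMTS10 was at 21.0 to 21.3 CPM at the low dose and had a log2 fold of 0.18 ± 0.12 against it (adjusted p = 0.608). SREBF1 had -0.02 ± 0.07 (adjusted p = 0.934), FTH1 0.12 ± 0.12 (0.757), GDF15 0.16 ± 0.14 (0.703), AXL 0.02 ± 0.04 (0.912) and SLC30A1 -0.05 ± 0.08 (0.837) against the low dose. Of these genes AXL passed against Citri, also of label 5 (-0.24, adjusted p = 0.00136). Its means were 188 CPM in treated, 186 CPM in low-dose, 222 CPM in Citri and 215 CPM in vehicle libraries. ADAMTS10, SREBF1, FTH1, GDF15 and SLC30A1 did not pass against Citri either. For called genes that passed against neither the low dose nor Citri, a difference between label sets cannot be told apart from one of extract. A p that misses the threshold does not show equal levels. INSIG1 and GREM1 passed against the low dose, at 0.31 ± 0.05 (adjusted p = 0.000356) and 0.56 ± 0.12 (0.00641), but not against Citri. There INSIG1 had 0.07 ± 0.05 (adjusted p = 1.0) and GREM1 0.19 ± 0.12 (0.928), with INSIG1 at 46.6 ± 1.05 CPM (SD, n = 3) and GREM1 at 6.71 ± 0.281 CPM in the Citri libraries.

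**Figure D4:**
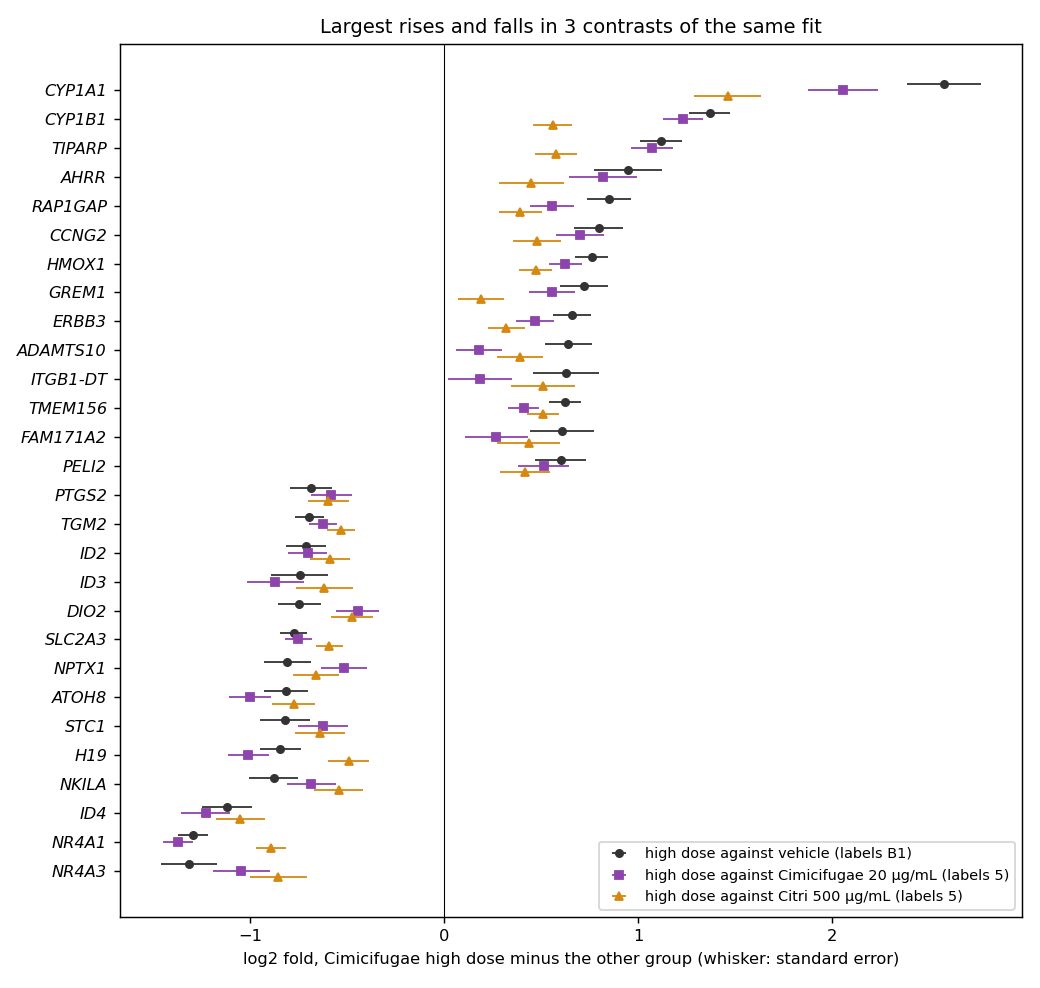
For the 14 largest rises and 14 largest falls against vehicle, the log2 fold of the high dose (x axis, whisker for the standard error) is drawn against vehicle (circles), against Cimicifugae at 20 µg/mL (squares) and against Citri at 500 µg/mL (triangles). CYP1A1 and NR4A1 stay far from 0 in all 3, whereas ADAMTS10 and ITGB1-DT lie near 0 against the low dose, both at 0.18.

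The medium and low doses share no library with the comparison that called the 340 genes, so their order is a separate measure. Of the 188 risen genes 127 (67.6%) were higher at 100 than at 20 µg/mL, and of the 152 fallen genes 130 (85.5%) were lower, where all genes tested divided into 50.2% and 49.8%. Together 75.6% of the 340 followed the direction of the high dose. This share depended on single libraries, at 82.1% without low 2, 65.0% without medium 2 (76.5% and 76.8% without medium 1 and 3), 63.8% without low 1 and 64.7% without low 3. The median difference from 20 to 100 µg/mL was small, 0.05 on the log2 scale for the risen and -0.06 for the fallen genes. Relative to vehicle, the median ratio of mean levels was 1.13 at 20, 1.16 at 100 and 1.34 at 500 µg/mL for the risen genes, and 0.942, 0.901 and 0.787 for the fallen ones. These ratios share the vehicle libraries by which the genes were chosen and are given as a description. Among the named genes TGM2 was at 399.5 to 415 CPM at 20 µg/mL, 346 to 364 CPM at 100 µg/mL and 258 to 269.7 CPM at 500 µg/mL, without overlap between neighbouring doses. SGK1 likewise went from 48.6 to 48.8 CPM through 44.0 to 45.5 CPM to 36.4 to 38.6 CPM. IGFBP3 and TGFBI overlapped between 20 and 100 µg/mL and were lower at 500 µg/mL.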

How the data were processed

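Per the labels' protocols, polyadenylated RNA of A549 was made into directional libraries (MGIEasy kit) and sequenced as 100 bp paired ends. The submitters' processing notes name GRCh38, the aligner STAR 2.7.3a, the counter RSEM 1.3.3, and FastQC 0.11.9 and Trim Galore 0.6.5. The annotation release and the strand setting are not given in the sources used here. The deposited values are RSEM expected counts per gene, of which 9.37% were not whole, and they were rounded to whole numbers. Of 269 sample columns, 60 matched the series' labels and 209 were not used. Gene names and positions are from GENCODE 29 by gene identifier (57055 of 60675 found), promoters from RefSeq.

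In R 4.3.3, edgeR 4.0.16 (with limma 3.58.1) fitted 57 libraries in 19 groups of 3 (TMM scaling, low counts filtered by group, quasi-likelihood test, Benjamini-Hochberg adjustment, threshold 0.05), leaving 38 residual degrees of freedom and a biological coefficient of variation of 10.1%. Bojungikgi-tang, with 1 library a dose, was left out. Standard errors are the log2 fold divided by the root of F. On simulated counts of the high dose against vehicle over 17107 genes, 65 of 100 planted 1.5-fold and 75 of 99 planted 2-fold changes were recovered, with 7 false calls. Alternatives were RLE size factors, DESeq2 1.42.0, no count filter, fewer libraries, a replicate block, a length covariate and each library left out.

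Named genes are the 14 largest rises and 14 largest falls at 5 CPM or more in the higher of both groups and without overlapping libraries, up to 4 called members of each of 43 lists (by smallest adjusted p), and a panel of 20 genes. Among the rises and falls, genes without a symbol, clone names and LINC names were passed over. The members and lists were chosen with earlier results of these data known. A few genes that the rule names are not reported here.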

Additional observations from a re-analysis of the deposited data

How the results depend on the processing

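The count of 340 genes against vehicle (232 against the low dose, 119 against Citri) came to 362 (240, 126) with RLE size factors, 463 (330, 171) with DESeq2 and 334 (227, 116) in a robust fit, the last added after the data were seen. It moved to 141 (111, 63) with no filter on low counts, 1932 (11, 1078) with the 6 libraries alone, 544 (382, 192) less Citri medium 1, and 1398 (741, 480) when the long-short balance was a covariate. With the vehicle and Cimicifugae groups alone it was 172 (90), and this setting gives no value for Citri. All 340 genes were among the calls less Citri medium 1 and among those with the covariate, and 335 among those of the 6 libraries alone. Less Cimicifugae low 2, also added after the data were seen, 403 genes were called against vehicle. Leaving out single libraries gave 149 to 215 (105 to 217, 62 to 71). List members called, 56 in all, numbered 37 to 41 without single libraries, 153 with the 6 libraries alone and 120 with the covariate. The share of called genes in the direction of the high dose between 20 and 100 µg/mL, 75.6%, ran from 63.8% to 82.1% without single libraries and was 77.6% with the covariate, all added after the data were seen. With the replicate number as a block (replicate block) the counts were 340 (229, 113), with 321 of the first 340 shared. Same-numbered treated and vehicle libraries deviated with correlations of -0.019, 0.001 and -0.009, and different-numbered ones with -0.026 to 0.035. No shared deviation by number was seen, but deviations from means of 3 libraries cannot settle whether the numbers pair the samples. Of 68 named calls, 38 stood under each setting, 28 ended without at least 1 library, 20 with no filter, 19 with the vehicle and Cimicifugae groups alone and 4 with the block (GDF15, NR4A2, IFIT1 and AURKA). GDF15 had an adjusted p of 0.0511 with the block. IGF2, at a log2 fold of 0.01, changed sign to -0.09 without treated 3 and -0.10 without vehicle 2, and ranged up to 0.135 without other libraries. NQO1 passed with the 6 libraries alone (adjusted p = 0.0122). The cause of these shifts was not tested.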

Other observations

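Outside the lists, several called genes were chosen after their values were seen. SOX9, a transcription factor of airway progenitors, fell from 20.7 to 12.9 CPM (group means, -0.69 ± 0.08 on the log2 scale, adjusted p = 2.88e-07), and the receptor kinase gene FGFR1 from 179 to 131 CPM (-0.45 ± 0.06, adjusted p = 8.21e-07). GPX3, a secreted glutathione peroxidase, fell from 19.9 to 12.6 CPM (-0.66 ± 0.12, adjusted p = 0.000396). VIPR1, a receptor for vasoactive intestinal peptide, rose from 0.551 to 1.602 CPM (1.53 ± 0.28, adjusted p = 0.000506). These 4 calls stood without any single library, and each of the 4 genes also passed against the low dose (adjusted p at most 0.0485).

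A few further genes, likewise chosen after their values were seen, were lower. The actin crosslinker gene ACTN4 went from 1755 to 1450 CPM (-0.28 ± 0.05, adjusted p = 0.00131) and the membrane-actin linker gene EZR from 327 to 274 CPM (-0.26 ± 0.04, adjusted p = 0.000203), both called without any single library. The tropomyosin genes TPM3 (-0.21 ± 0.05, adjusted p = 0.0218) and TPM4 (-0.19 ± 0.05, 0.0324) lost their calls without each of the 6 libraries in turn. At the low end, the antisense RNA CHMP1B-AS1 was at 0.0381 CPM in vehicle and 1.80 CPM in treated libraries (group means, adjusted p = 0.0191). All 18 libraries of label set 5 ranged from 0.171 to 5.00 CPM (median 1.33), and its level at 20 µg/mL was 1.63 CPM. The 36 libraries whose labels begin with 6 or 7 ranged from 0 to 3.74 CPM (median 1.57). Reads of its sense partner cannot be told apart without the strand setting. That call ended without 4 of the 6 libraries.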
